A study of Mus musculus and Rattus norvegicus with 51 samples.

Results

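The genes described here are 38 genes of DNA replication and S phase, listed by name and looked up in the 3 count tables of the study. Both mouse liver tables held all 38, and the rat cell table held 35, since E2f2, E2f8 and Chaf1a were not listed there. In all, 35 of the 38 were in all 3 tables, out of 28589 gene names listed in any of them. Every listed gene passed the filter on low counts in each table that held it. By role they are 7 MCM genes, 7 genes of origin licensing and firing, 9 genes of the clamp, clamp loader and polymerases, 4 genes of nucleotide supply, 6 cyclins and E2F factors of the G1/S step, and 5 genes of flap removal, ligation, chromatin assembly and repair.

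The study asks how redox forms of HMGB1, a nuclear protein that injured cells release, bear on the progression and resolution of liver fibrosis, and it sequenced mRNA of 51 libraries in 16 groups. HSC-T6 cells, an immortalised rat line of the hepatic stellate cell, which makes the scar matrix of the liver, were given [SO3], [O] or [H] HMGB1 or BSA for 6 h, with 3 libraries each. Whole livers of male wild-type mice were taken after a further 1 week of regression with [SO3] HMGB1, an HMGB1 antibody or BSA, and after 4 weeks of the hepatotoxin CCl4 with [H] HMGB1, [O] HMGB1 or BSA, again with 3 libraries each. A further set held male livers after 4 weeks of CCl4 or MO in 3 mouse types. These were Hmgb1ΔHepΔMye with Δ[O] HMGB1 (4 CCl4 and 3 MO libraries), Hmgb1ΔHepΔMye with WT HMGB1 (4 and 3), and wild type (4 and 3). The labels do not spell out [H], [O], [SO3] or MO. Hmgb1ΔHepΔMye is a deletion of Hmgb1 whose drivers the labels do not name; these livers are called knockout livers below. Both knockout types share a genotype and differ in the HMGB1 construct they carried. Wild-type livers did not carry a construct, so genotype and construct cannot be told apart between wild-type and knockout livers.

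Before a cell copies its DNA, the origin recognition complex with Cdc6 and Cdt1 loads rings of MCM proteins onto origins, and the cyclin E kinases and the Cdc45 and GINS proteins then turn these rings into helicases. The sliding clamp Pcna, its loader and the polymerases copy the strands, ribonucleotide reductase, thymidylate synthase and thymidine kinase supply the deoxynucleotides, and Fen1 and Lig1 join the lagging strand. Most of these genes are known targets of the E2F factors and are switched on as cells pass from G1 into S phase. Hepatocytes of a healthy adult liver rarely divide, and after toxic injury they and the non-parenchymal cells enter the cell cycle.

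Words of the E2F binding site were looked for in the RefSeq promoters of the mouse build GRCm38.p6, taken as 250 bases before to 50 bases after each gene's start. Windows were given for 32 of the 38 genes. The words TTTCCCGC, TTTGGCGC, TTTCGCGC and TTTGCCGC, which are forms of the E2F site, were searched on both strands, where neighbouring matches can overlap. At least 1 of them was in a window of 14 of the 32 genes (43.8%), against 2.6% of the 27025 genes with a window. The word CCAAT was in 21 of the 32 (65.6%), against 41.1% of all. The 250 bases before the start are shown for 4 genes with a match, chosen from the helicase and licensing genes, and for Mcm10 and Tk1. These had no match and were picked because their levels in wild-type livers ran apart from most of the other genes. Mcm10 and Tk1 do not stand for all genes without a match. Mcm2, Rrm1, Fen1 and Brca1 also had none and rose with CCl4 in each mouse type. Capitals mark the E2F words. All sequences are mouse, so they do not describe the rat cells, and a match is not a measured binding site.
Mcm5: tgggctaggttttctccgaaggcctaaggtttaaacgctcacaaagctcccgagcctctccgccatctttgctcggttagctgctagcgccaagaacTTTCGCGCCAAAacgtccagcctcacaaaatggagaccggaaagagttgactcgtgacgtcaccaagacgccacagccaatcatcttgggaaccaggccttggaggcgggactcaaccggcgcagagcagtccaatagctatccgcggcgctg
Mcm6: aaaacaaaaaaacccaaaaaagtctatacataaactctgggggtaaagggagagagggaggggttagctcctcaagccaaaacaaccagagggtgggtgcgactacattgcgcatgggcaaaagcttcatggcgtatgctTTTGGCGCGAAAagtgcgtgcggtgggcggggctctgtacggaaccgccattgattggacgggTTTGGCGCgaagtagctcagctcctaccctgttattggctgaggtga
Cdc6: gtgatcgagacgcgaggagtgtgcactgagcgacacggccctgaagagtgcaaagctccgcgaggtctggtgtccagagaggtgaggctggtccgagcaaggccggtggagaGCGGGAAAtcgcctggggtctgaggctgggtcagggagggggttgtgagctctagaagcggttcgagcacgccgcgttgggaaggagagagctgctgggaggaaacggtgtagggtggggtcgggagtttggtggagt
Orc1: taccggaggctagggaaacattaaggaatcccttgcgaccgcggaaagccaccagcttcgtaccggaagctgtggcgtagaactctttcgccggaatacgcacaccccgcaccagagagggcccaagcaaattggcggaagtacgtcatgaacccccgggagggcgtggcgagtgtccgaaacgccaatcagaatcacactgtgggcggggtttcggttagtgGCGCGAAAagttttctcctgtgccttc
Mcm10: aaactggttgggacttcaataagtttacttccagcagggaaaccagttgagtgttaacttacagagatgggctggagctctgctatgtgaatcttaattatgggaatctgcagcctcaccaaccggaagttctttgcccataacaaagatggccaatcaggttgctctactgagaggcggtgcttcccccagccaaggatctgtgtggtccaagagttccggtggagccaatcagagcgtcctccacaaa
Tk1: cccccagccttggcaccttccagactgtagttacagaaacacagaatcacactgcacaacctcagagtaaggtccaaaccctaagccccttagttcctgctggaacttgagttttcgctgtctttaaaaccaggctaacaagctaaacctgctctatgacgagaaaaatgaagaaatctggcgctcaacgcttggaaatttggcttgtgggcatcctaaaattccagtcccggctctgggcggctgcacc
These stretches lie at chr8:75109259-75109508 on the plus strand for Mcm5, chr1:128359706-128359955 on the minus strand for Mcm6, chr11:98907901-98908150 on the plus strand for Cdc6, chr4:108579204-108579453 on the plus strand for Orc1, chr2:5012792-5013041 on the minus strand for Mcm10 and chr11:117826015-117826264 on the minus strand for Tk1. In the GENCODE M21 annotation Cdc6 starts at chr11:98907801, so its whole stretch and E2F word lie inside the gene there. The stretches of Orc1 and Tk1 lie partly inside their genes in that annotation. Orc1 starts at chr4:108579423 there, so its E2F word also lies inside the gene. Mcm5 and Mcm6 each hold a pair of overlapping words on opposite strands, and Mcm6 holds a further word close to its start. Of the 14 genes with a match, the helicase role gave Mcm3, Mcm5, Mcm6 and Mcm7, and the licensing role gave Cdc6, Cdt1 and Orc1.

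Levels are CPM, a gene's count relative to its library's total as scaled with edgeR's TMM factors, and a gene is called where its Benjamini-Hochberg adjusted p in edgeR's quasi-likelihood test over all genes of its table is under 0.05. The cell libraries held 11752661 to 16981255 gene counts, the fibrosis and resolution livers 8355714 to 16327132 and the MO and CCl4 livers 22598631 to 39323123. Stellate cell markers summed to 28640 to 43600 CPM in the cells, where Lrat, which stores retinoid in quiescent stellate cells, was at 0 in all 12 libraries, and hepatocyte markers summed to at most 2.04 CPM. In livers the hepatocyte markers summed to at least 14050 CPM. Nothing in the labels ties each numbered sample to its own culture or animal, so the p-values rest on differences between samples that could be technical. Some livers stood apart from their group in the summed level of the 38 genes: with CCl4 and BSA the second library held 328 CPM against 1377 and 1691, with CCl4 and [O] HMGB1 the second held 409 against 1110 and 1440, and with CCl4 and [H] HMGB1 the first held 1570 against 401 and 451. In the other set the fourth wild-type CCl4 library held 335.5 CPM against 519.8 to 866, and the Δ[O] HMGB1 CCl4 library numbered 5 held 365 CPM against 985 to 1625. In whole liver, fewer cells of a type and less RNA per cell cannot be told apart.

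In HSC-T6 cells with [H] HMGB1, replication gene levels stayed close to those with BSA, and 1 of 35 genes was called. Uhrf1, which guides DNA methylation to newly copied strands, had 64.2, 70.5 and 69.7 CPM with [H] HMGB1, against 60.1, 57.8 and 56.3 CPM with BSA. All 3 [H] libraries were above all 3 BSA libraries, and edgeR gave a log2 fold change of 0.23 (SE 0.05, adjusted p = 0.0363). Over all genes tested, 0.316% were called higher and 0.483% lower, so a single call of 35 is near the background. The call did not hold with the replicate block, or without BSA library 2 or 3 or [H] library 2 or 3. The median log2 fold change of the 35 genes was 0.04, against 0.003 over all genes. Mcm2 averaged 123 ± 4.22 CPM with [H] HMGB1 and 114 ± 5.1 CPM with BSA, and Cdc6 14.2 ± 0.929 and 13.8 ± 1.28 CPM (SD, n = 3 each), and neither was called. In non-overlap of CPM, 7 of 35 genes lay wholly above BSA and 0 below, against 13.7% and 10.7% of all genes. Pcna (82.2 ± 5.31 CPM with [H] HMGB1 and 84.6 ± 4.02 CPM with BSA), Rrm2 (157 ± 4.6 and 159 ± 13.6 CPM), Tk1 (212 ± 3.19 and 208 ± 0.349 CPM) and E2f1 (37.7 ± 1.43 and 37.03 ± 3.61 CPM) lay as close, as did Mcm5 (103 ± 3.8 and 97.8 ± 1.66 CPM), Ccne1 (9.69 ± 0.596 and 9.36 ± 0.135 CPM) and Ccne2 (34.6 ± 2.27 and 34.2 ± 2.78 CPM). Of 36 other replication genes and 21 regulators of the G1/S step, 1 and 5 had an unadjusted p under 0.05 and none passed edgeR's adjustment.

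With [O] HMGB1, 31 of the 35 listed genes fell and 0 rose, in all 6 roles. In the same comparison 20.2% of all genes were called lower and 23.7% higher, and the median log2 fold change was -0.31 over the 35 genes and -0.006 over all. The falls were small, from 0.18 to 0.67 on the log2 scale. All 7 licensing and firing genes, 6 of 7 MCM genes and 8 of 9 clamp, loader and polymerase genes fell. So did 3 of 4 nucleotide supply genes, 3 of 4 cyclins and E2F factors and all 4 of the flap and chromatin group. Of the 31 calls, 25 held in all 12 alternatives. Rfc4 was called in 6 of 12, Orc1 in 8, Gins1 and Prim1 in 10 each, and Ccne1 and Brca1 also lost some. Scaled by total counts, where 38.7% of all calls were higher in place of 54.1%, 33 of the 35 fell and 0 rose. CPM of the 3 [O] libraries lay wholly below those of the 3 BSA libraries for 31 genes, against 23.9% of all genes, and for 0 genes above them, against 26.9%. Stellate cell markers summed to 42170 to 43600 CPM with [O] HMGB1, against 39250 to 41280 CPM with BSA. Erythroid precursor markers (2 of 5 present) summed to 84.2 to 88.97 CPM, against 67.2 to 82.4 CPM. HSC-T6 is a cell line, so these sums are levels of marker genes and not shares of cell types. Their part in the result was not tested.

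Among the MCM helicase genes, Mcm2 had 86.6, 87.3 and 81.2 CPM with [O] HMGB1, against 117, 117 and 108 CPM with BSA. The groups did not overlap (log2 -0.43, SE 0.05, adjusted p = 8.92e-08 by edgeR). Mcm10, which helps to activate the loaded helicase, had 18.5, 18.1 and 17.2 CPM with [O] HMGB1, against 23.1, 23.9 and 24.6 CPM with BSA (log2 -0.41, SE 0.07). Mcm6 (log2 -0.36) and Mcm5 (log2 -0.31) fell as well, while Mcm7, at 89.9 to 97.9 CPM with [O] HMGB1 and 91.6 to 98.0 CPM with BSA, was not called. Cdc6, a loader of the MCM ring, had 7.59, 8.33 and 10.04 CPM with [O] HMGB1, against 12.7, 13.5 and 15.2 CPM with BSA, the largest fall of the 35 genes (log2 -0.67, SE 0.11, adjusted p = 1.5e-05). Every [O] library lay below every BSA library for Cdc6. Gins2 (log2 -0.54) and Cdc45 (log2 -0.52), parts of the active helicase, fell to a like extent.

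Pcna, the sliding clamp, had 72.3, 75.6 and 73.5 CPM with [O] HMGB1, against 81.3, 83.3 and 89.1 CPM with BSA. The groups did not overlap, and the fall was small (log2 -0.20, SE 0.05, adjusted p = 0.00424 by edgeR). The clamp loader genes Rfc5 (log2 -0.47) and Rfc2 (log2 -0.34) and the polymerase delta gene Pold1 (log2 -0.39) fell further. Of the nucleotide supply genes, the thymidine kinase gene Tk1 had 174, 177 and 176 CPM with [O] HMGB1, against 208, 209 and 208 CPM with BSA (log2 -0.25, SE 0.04). The Tk1 libraries of each group lay close together, with no overlap. Rrm2, the regulated subunit of ribonucleotide reductase, averaged 137.5 ± 6.58 CPM with [O] HMGB1 and 159 ± 13.6 CPM with BSA (log2 -0.21), Rrm1, the large subunit, fell by 0.18, and Tyms, thymidylate synthase, was not called (17.2 to 18.6 CPM with [O] HMGB1 and 16.5 to 19.6 CPM with BSA). Ccne2, a cyclin E gene, had 21.8, 23.8 and 26.05 CPM with [O] HMGB1, against 34.2, 31.4 and 37.0 CPM with BSA, with no overlap (log2 -0.51, SE 0.08). The other cyclin E gene, Ccne1, fell less (log2 -0.27, adjusted p = 0.0424) and lost its call in 8 of 12 alternatives, among them each fit without 1 BSA library and those without [O] library 2 or 3, and the activator E2f1 fell by 0.45 on the log2 scale. Uhrf1 (log2 -0.35), Fen1 (log2 -0.31) and Brca1 (log2 -0.27), a repair gene, led the last group, and the Brca1 call was lost without BSA library 3 or [O] library 2.

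Of 36 other replication genes, 17 fell and 1 rose with [O] HMGB1. Gmnn, the inhibitor of Cdt1, fell by 0.61 on the log2 scale, Chaf1b, of the chromatin assembly factor, by 0.53 and the polymerase epsilon gene Pole2 by 0.49, while the origin recognition gene Orc2 rose (log2 0.16). The 21 regulators of the G1/S step were split, with 9 higher and 9 lower. The G1 kinase gene Cdk6 rose (log2 0.86), as did Ccnd2 (log2 0.56) and E2f3 (log2 0.50), and the kinase inhibitor genes Cdkn2c (log2 -0.75) and Cdkn1b (log2 -0.42) and the pocket protein gene Rbl2 (log2 -0.38) fell. Inhibitor and pocket protein genes did not move as one, since the inhibitor gene Cdkn1a (log2 0.42) and the pocket protein gene Rb1 (log2 0.40) rose.

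[SO3] HMGB1 also went with lower replication gene levels, but with exceptions. Compared with BSA, 26 of 35 genes fell and Orc1 and Pcna rose; 32.2% of all genes were called lower and 31.1% higher. In CPM 25 genes lay wholly below BSA and 3 wholly above, against 32.5% and 32.1% of all genes. Over the 35 genes the median log2 fold change was -0.42, against -0.02 over all genes. This comparison and that of [O] HMGB1 share the same BSA libraries. By role, 5 of 7 MCM genes, 6 of 7 licensing genes, 6 of 9 clamp, loader and polymerase genes, 3 of 4 nucleotide supply genes, 2 of 4 cyclins and E2F factors and all 4 of the flap and chromatin group fell. Stellate cell markers summed to 28640 to 30790 CPM with [SO3] HMGB1, against 39250 to 41280 CPM with BSA. Cholangiocyte markers (3 of 4 present) summed to 8.31 to 9.59 CPM, against 22.3 to 29.6 CPM. Erythroid precursor markers (2 of 5 present) summed to 107 to 113 CPM, against 67.2 to 82.4 CPM. HSC-T6 is a cell line, so these sums are levels of marker genes and not shares of cell types. Their part in the result was not tested.

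**Figure D1:**
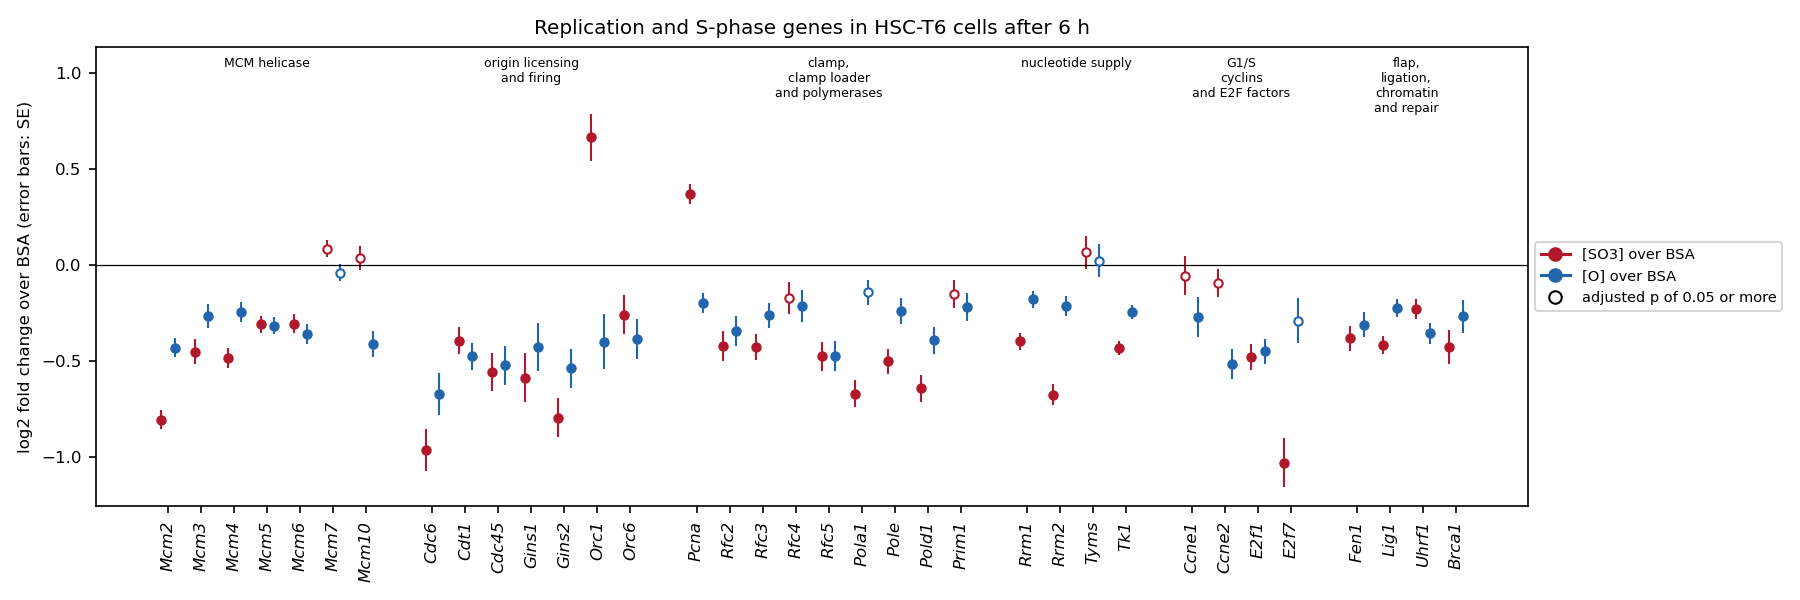
Log2 fold change of each of the 35 genes over BSA in HSC-T6 cells, by role, for [SO3] HMGB1 (red) and [O] HMGB1 (blue), which share the BSA libraries; points are edgeR estimates from 3 libraries per group, bars are their SE and open points were not called. With [O] HMGB1 all called points lie below 0, and with [SO3] HMGB1 Orc1 (0.67) and Pcna (0.37) lie above it.

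Mcm2 had 61.6, 68.8 and 66.1 CPM with [SO3] HMGB1, against 117, 117 and 108 CPM with BSA. The groups were far apart (log2 -0.80, SE 0.05, adjusted p = 8.78e-13 by edgeR). Mcm4 (log2 -0.48) and Mcm3 (log2 -0.45) fell, and Mcm5 fell by 0.31, whereas Mcm10 had 24.0 to 24.98 CPM with [SO3] HMGB1 and 23.1 to 24.6 CPM with BSA, and neither it nor Mcm7 was called. Cdc6 had 7.85, 6.62 and 6.74 CPM with [SO3] HMGB1, against 12.7, 13.5 and 15.2 CPM with BSA, again with no overlap (log2 -0.96, SE 0.11). Gins2 fell by 0.79 and Gins1 by 0.59. Orc1, the large subunit of the origin recognition complex, went the other way, with 7.85, 6.96 and 7.26 CPM with [SO3] HMGB1, against 4.49, 4.40 and 5.04 CPM with BSA (log2 0.67, SE 0.12, adjusted p = 4.35e-05). Every [SO3] library was above every BSA library for Orc1. Pcna likewise stood higher, with 109, 115 and 104 CPM with [SO3] HMGB1, against 81.3, 83.3 and 89.1 CPM with BSA (log2 0.37, SE 0.05).

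The polymerase genes Pola1 (log2 -0.67), Pold1 (log2 -0.64) and Pole (log2 -0.50) fell, as did the clamp loader genes Rfc5 (log2 -0.47) and Rfc2 (log2 -0.42), and Rfc4 and Prim1 were not called. Rrm2 had 97.1, 104 and 98.0 CPM with [SO3] HMGB1, against 149, 154 and 175 CPM with BSA (log2 -0.67, SE 0.05). Tk1 had 154.5, 156 and 153 CPM with [SO3] HMGB1, against 208, 209 and 208 CPM with BSA (log2 -0.43). Neither gene's groups overlapped. E2f7, an E2F repressor that is itself an S-phase gene, showed the largest fall of the 35 (3.40, 4.11 and 4.42 CPM with [SO3] HMGB1, against 7.96, 7.88 and 8.63 CPM with BSA; log2 -1.03, SE 0.13). E2f1 fell by 0.48, while Ccne1 (8.16 to 10.1 CPM with [SO3] HMGB1 and 9.26 to 9.51 CPM with BSA) and Ccne2 (30.3 to 34.01 and 31.4 to 37.0 CPM) were not called. Brca1 (log2 -0.43), Lig1 (log2 -0.41) and Fen1 (log2 -0.38) fell together.

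Outside the 35 genes, 20 of 36 other replication genes fell and 4 rose with [SO3] HMGB1. Pola2 (log2 -0.78), the fork protection gene Timeless (log2 -0.74) and Dnmt1, the maintenance DNA methyltransferase (log2 -0.73), fell most, and Pole4 (log2 0.27), the origin firing kinase gene Cdc7 (log2 0.26) and Orc2 (log2 0.23) rose. Of the G1/S regulators 9 of 21 rose and 8 fell. Cdkn1a, which encodes the p21 inhibitor of cyclin-dependent kinases and of Pcna, rose to 1032 ± 35.5 CPM with [SO3] HMGB1, against 189 ± 6.43 CPM with BSA (SD, n = 3 each; log2 2.45, SE 0.04). Myc (log2 1.01) and Cdk6 (log2 0.79) rose too, and Cdkn2c (log2 -1.12), the S and G2 cyclin gene Ccna2 (log2 -1.03) and Rbl2 (log2 -1.03) fell.

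Set directly against [O] HMGB1, [SO3] HMGB1 gave 6 higher and 14 lower genes of 35, while 29.1% of all genes were called higher and 30.0% lower, so the share called was near the background. In CPM 6 genes lay wholly above and 12 wholly below, against 30.6% and 31.7% of all genes, and the median log2 fold change was -0.07. Under total counts, where 63.1% of all calls were higher in place of 49.2%, the split was 8 higher and 9 lower. Orc1 had 7.85, 6.96 and 7.26 CPM with [SO3] HMGB1, against 3.30, 3.12 and 4.12 CPM with [O] HMGB1 (log2 1.07, SE 0.12, adjusted p = 7.37e-08 by edgeR). Pcna (log2 0.57), Mcm10 (log2 0.45), Ccne2 (log2 0.42), Mcm7 (log2 0.13) and Uhrf1 (log2 0.13) were the other higher genes. E2f7 (log2 -0.74), Pola1 (log2 -0.53), Rrm2 (log2 -0.46) and Mcm2 (log2 -0.38) were lower with [SO3] HMGB1, as were Mcm4 (log2 -0.24), Tk1 (log2 -0.19), Lig1 (log2 -0.19) and, barely, Cdc6 (log2 -0.29, adjusted p = 0.0344). Mcm5, E2f1 and Cdt1 were not called between the forms, with 75.7 to 82.6 CPM for Mcm5 with [SO3] HMGB1 and 76.7 to 80.8 CPM with [O] HMGB1. Of the other replication genes 9 of 36 were higher and 9 lower, led by Tipin (log2 0.45) and Timeless (log2 -0.56), and of the G1/S regulators 6 were higher and 7 lower, led by Cdkn1a (log2 2.03) and Ccna2 (log2 -0.88). The count of called genes ran from 14, without [O] library 3, to 20 when single libraries were left out, and 13 of the 20 calls held in all 12 alternatives. Among the genes named, Cdc6, Mcm7 and Uhrf1 lost their calls in some of them, each without [O] library 3 among others, and Lig1 lost its call under total counts (adjusted p = 0.0539).

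**Figure D2:**
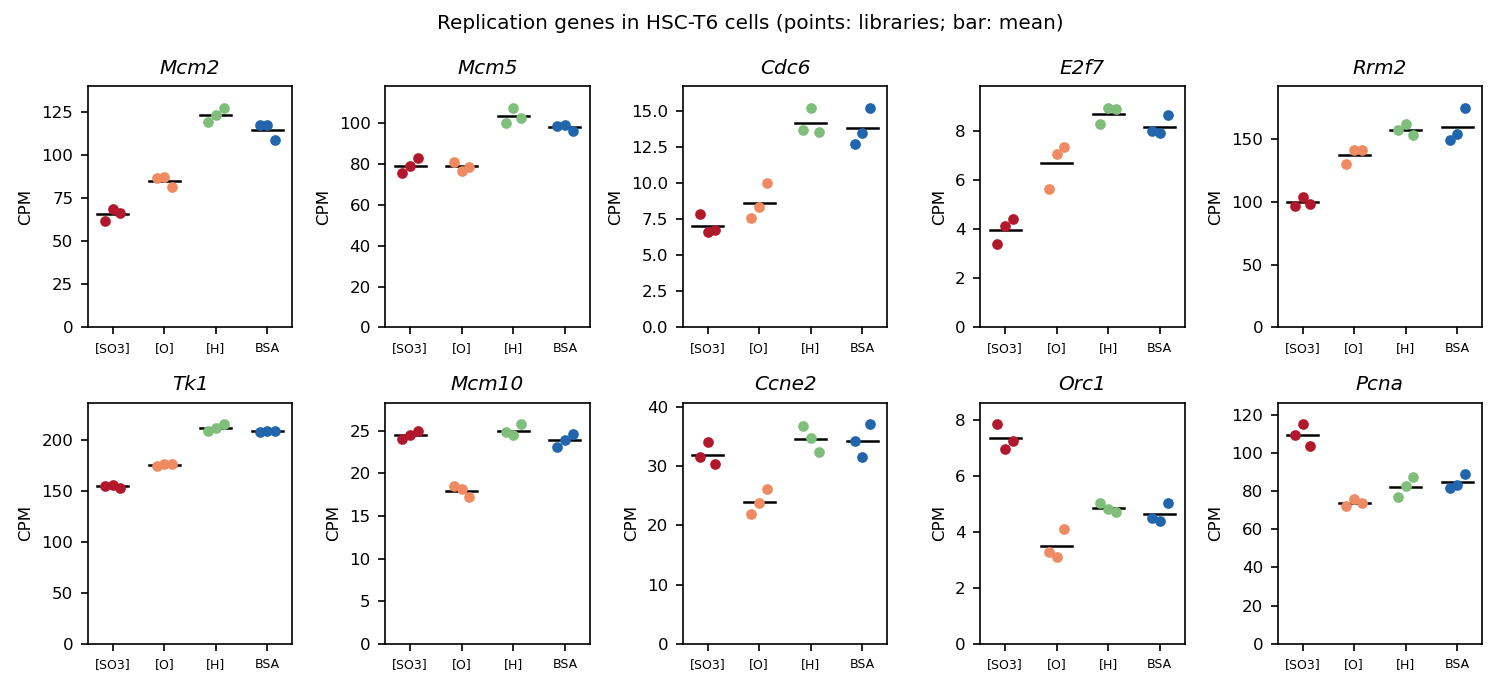
CPM of 10 replication genes in HSC-T6 cells; points are the 3 libraries per group and bars their means, with each axis starting at 0. For Mcm2, Cdc6, Rrm2 and Tk1 the [SO3] and [O] libraries lie below the BSA libraries, while for Orc1 and Pcna the [SO3] libraries lie above all others.

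In livers with 4 weeks of CCl4, levels of the 38 genes varied widely within groups, and 0 of 38 were called for [H] HMGB1 against BSA, [O] HMGB1 against BSA or [O] against [H] HMGB1. Over all genes edgeR called 0.0% in each of these comparisons. At an unadjusted p under 0.05 there were 2 of 38 genes (1448 of 13487 genes) for [H] HMGB1, 0 (727 genes) for [O] HMGB1 and 0 (1413 genes) for [O] against [H], and DESeq2 also called 0 of 38 in each. The 2 were Ccne2 (log2 -1.60, SE 0.45) and E2f7 (log2 -1.86, SE 0.79) with [H] HMGB1, each with an adjusted p over 0.4.

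Mcm2 had 94.1, 25.9 and 7.19 CPM with [H] HMGB1 and 71.5, 23.2 and 62.7 CPM with [O] HMGB1, against 73.5, 7.55 and 62.2 CPM with BSA. Each group held at least 1 low liver, and the groups overlapped throughout. Mcm5 spanned 5.73 to 122 CPM with [H] HMGB1, 16.8 to 126 CPM with [O] HMGB1 and 3.72 to 123 CPM with BSA. Cdc6 had 11.5, 1.58 and 0.318 CPM with [H] HMGB1 and 5.48, 1.16 and 12.8 CPM with [O] HMGB1, against 16.3, 0.604 and 10.4 CPM with BSA. The same livers were low for the loader as for the helicase genes. Ccne2 had 6.86, 2.24 and 3.05 CPM with [H] HMGB1 and 7.62, 3.65 and 10.1 CPM with [O] HMGB1, against 15.5, 6.34 and 14.7 CPM with BSA. Of the [H] libraries, numbers 2 and 3 lay below all BSA libraries for Ccne2. Rrm2 ran from 6.43 to 38.5 CPM with [H] HMGB1 and 8.22 to 49.8 CPM with [O] HMGB1, against 11.2 to 133 CPM with BSA, and E2f1 from 6.11 to 44.7 and 9.21 to 42.4 CPM, against 3.93 to 40.5 CPM. Pcna (54.9 to 109 and 46.4 to 116 CPM, against 71.5 to 158 CPM), Ccne1 (3.75 to 15.3 and 5.96 to 11.1 CPM, against 4.63 to 14.2 CPM) and Tk1 (10.3 to 57.1 and 7.41 to 66.8 CPM, against 5.03 to 75.3 CPM) overlapped too.

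The median log2 fold change of the 38 genes was -0.53 with [H] HMGB1, -0.19 with [O] HMGB1 and 0.32 for [O] against [H] HMGB1, and each moved widely as single libraries were left out. With [H] HMGB1 it ran from -1.67 without the first [H] library to -0.11 without the third BSA library. With [O] HMGB1 it ran from -0.65 without the second BSA library to 0.25 without the third, and was also above 0 without the first BSA or the second [O] library. Between [O] and [H] HMGB1 it ran from -0.02 without the third [H] library to 1.44 without the first. Cdt1, the partner of Cdc6 in loading, was at 50.3 CPM in the second BSA library, against 37.8 and 33.2 CPM in the other BSA livers, although most of the 38 genes were at their lowest there. Cholangiocyte markers summed to 539 CPM in that library, against 42.2 to 57.6 CPM in the other BSA livers, and their part in the result was not tested. Of the 38 genes, 0 lay wholly above and 0 wholly below BSA with [H] HMGB1 (3.06% and 4.87% of all genes), 0 and 1 with [O] HMGB1 (3.17% and 2.67%), and 0 and 0 between [O] and [H] HMGB1 (9.27% and 5.12%).

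After the week of regression the 38 genes summed to 344 to 421 CPM in the 9 livers. With [SO3] HMGB1 or the HMGB1 antibody, set against BSA, edgeR called 0 of 38 genes and 0.0% of all genes. At an unadjusted p under 0.05 there was 1 gene of 38 with [SO3] HMGB1 (812 genes in all) and 0 with the antibody (279), and DESeq2 called 0 of 38 in each. Medians over the 38 genes were 0.15 and 0.28 on the log2 scale. Mcm2 had 6.68, 5.05 and 5.00 CPM with [SO3] HMGB1 and 11.5, 6.23 and 5.07 CPM with the antibody, against 4.45, 4.66 and 6.27 CPM with BSA. Cdc6 stayed at or under 1.36 CPM in these 9 livers. Ccne2 had 2.93, 3.01 and 4.18 CPM with [SO3] HMGB1 and 2.29, 3.33 and 2.28 CPM with the antibody, against 1.51, 2.33 and 2.01 CPM with BSA, so the [SO3] livers were all above the BSA livers without passing the test. In CPM, 9 of 38 genes lay wholly above BSA and 3 wholly below with [SO3] HMGB1, against 11.1% of all genes each way, and 6 and 1 with the antibody, against 5.52% and 4.39%. Mcm5 (4.62 to 6.22 and 5.91 to 9.67 CPM, against 3.77 to 4.73 CPM), Pcna (42.01 to 64.7 and 46.3 to 56.8 CPM, against 44.5 to 50.3 CPM), Rrm2 (5.71 to 17.7 and 7.20 to 12.1 CPM, against 6.50 to 15.2 CPM), E2f1 (5.40 to 6.02 and 7.84 to 11.3 CPM, against 6.78 to 10.6 CPM) and Ccne1 (1.02 to 1.29 and 1.87 to 1.93 CPM, against 1.23 to 5.65 CPM) were not called.

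With BSA in both stages, replication genes were lower in resolution than in fibrosis. Of 38 genes, 15 fell and 0 rose in the 1-week livers, where 6.6% of all genes were called lower and 2.4% higher. Regression, elapsed time and CCl4 exposure cannot be told apart between these stages. Over the 38 genes the median log2 fold change was -1.93, against -0.04 over all genes. The fallen genes were 5 of 7 MCM genes, 3 of 7 licensing genes, 2 of 9 clamp, loader and polymerase genes, 0 of 4 nucleotide supply genes, Ccne2 alone of 6 cyclins and E2F factors, and 4 of 5 of the flap and chromatin group. Mcm2 had 4.45, 4.66 and 6.27 CPM in resolution, against 73.5, 7.55 and 62.2 CPM in fibrosis. The second fibrosis liver came close to the resolution range, the others lay far above it (log2 -3.23, SE 0.84, adjusted p = 0.0334 by edgeR). Mcm5 (log2 -4.17), Mcm6 (log2 -3.34), Gins2 (log2 -3.57), Uhrf1 (log2 -4.44), Chaf1a, a chromatin assembly gene (log2 -3.21), and Lig1 (log2 -3.13) had large fitted falls with SEs of 0.73 to 1.25. Orc1 was also called, but the resolution livers held 1, 0 and 0 reads of it, against 26, 2 and 23 reads in fibrosis, so no fold is given.

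Cdt1 had 5.00, 5.51 and 4.77 CPM in resolution, against 37.8, 50.3 and 33.2 CPM in fibrosis, with no overlap (log2 -2.98, SE 0.54, adjusted p = 0.0135 by edgeR). Ccne2 had 1.51, 2.33 and 2.01 CPM in resolution, against 15.5, 6.34 and 14.7 CPM in fibrosis (log2 -2.65, SE 0.48), and Pcna 44.5, 50.3 and 46.3 CPM, against 118, 71.5 and 158 CPM (log2 -1.30, SE 0.33). For each of these 3 genes even the low second fibrosis liver was above all resolution livers. Cdc6, Rrm2, Ccne1, E2f1 and Tk1 were not called; Tk1 had 24.9, 30.4 and 27.6 CPM in resolution, within the range of 28.4, 5.03 and 75.3 CPM in fibrosis. Mcm10 ran against the rest of its role, with 86.9, 79.1 and 99.9 CPM in resolution, against 39.2, 1.81 and 38.2 CPM in fibrosis, with no overlap and no call. In CPM, 10 of 38 genes lay wholly below fibrosis and Mcm10 wholly above, against 16.7% and 18% of all genes. Under total counts, where 13.2% of all calls were higher in place of 26.7%, 17 of 38 fell and 0 rose.

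None of the 15 calls of regression held in every alternative. With any 1 of the 3 resolution libraries left out, 0 of 38 were called; without the third fibrosis library 6, without the first 12 and without the second 24; and in a fit of only these 6 libraries only Cdt1. DESeq2 called 23, Rrm1 and Rrm2 of the nucleotide supply genes among them. The fall of the median was kept in all of these fits (log2 -2.42 to -1.47). Stellate cell markers summed to 121 to 205 CPM in resolution and 238 to 918 CPM in fibrosis, cholangiocyte markers to 16.2 to 23.05 and 42.2 to 539 CPM, neutrophil markers to 32.3 to 43.1 and 47.9 to 152 CPM and endothelial markers to 259 to 312 and 170 to 245 CPM, and their part in the result was not tested. Of the other replication genes 6 of 40 fell, among them Pole2 (log2 -3.09), Chaf1b (log2 -2.48) and Mtbp (log2 -1.51), and of the G1/S regulators 5 of 25, among them Ccna2 (log2 -4.28), Cdkn1a (log2 -3.27) and Myc (log2 -3.16).

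**Figure D3:**
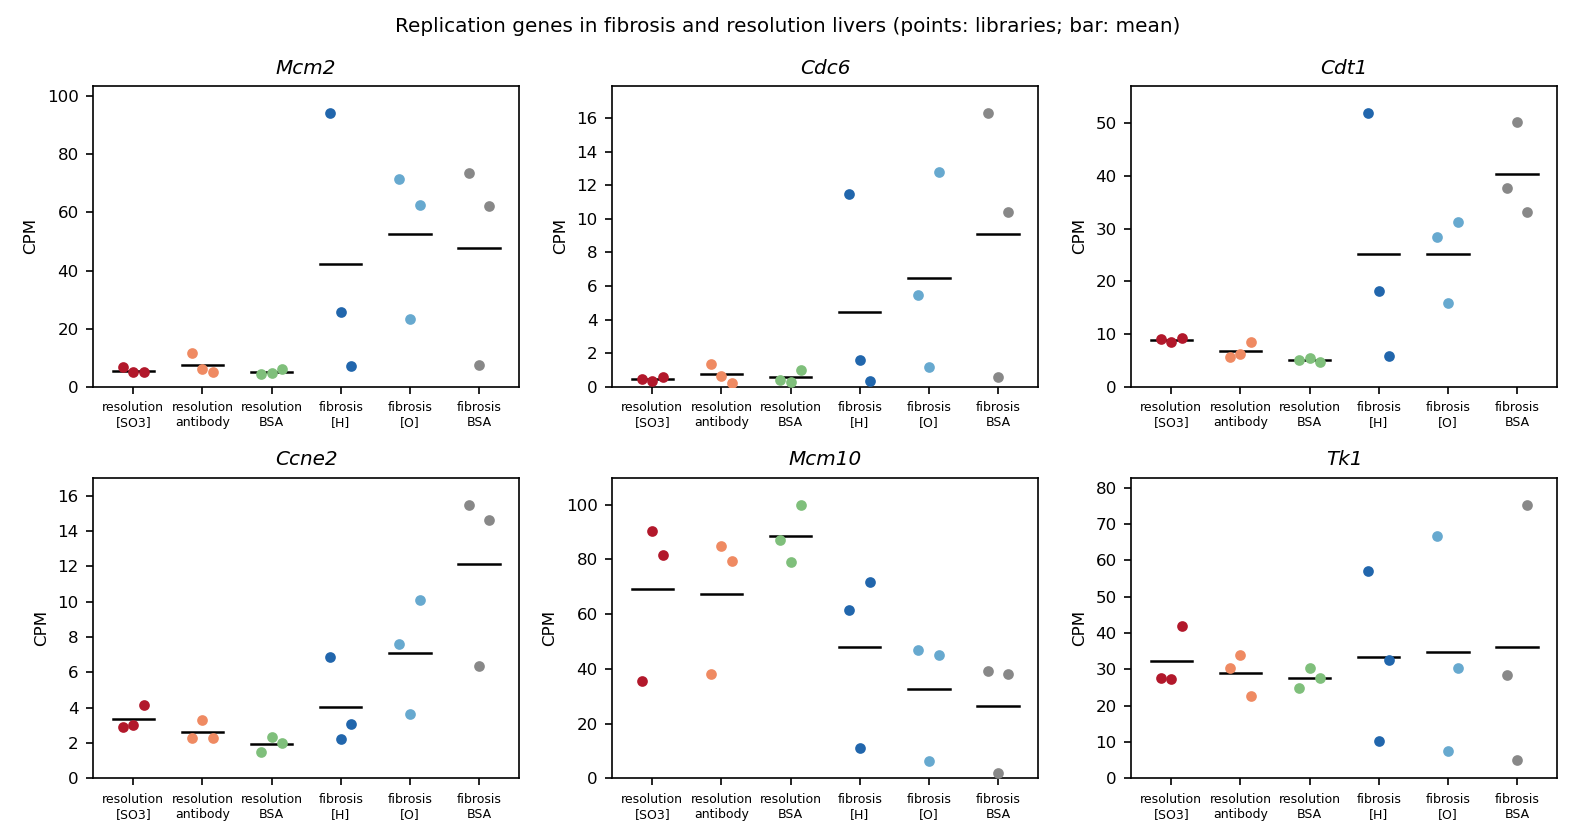
CPM of 6 replication genes in resolution and fibrosis livers; points are the 3 libraries per group and bars their means, with each axis starting at 0. Mcm2, Cdc6, Cdt1 and Ccne2 are low in all resolution livers and scattered in fibrosis livers, whereas Mcm10 is highest in the BSA resolution group and Tk1 spans 5.03 to 75.3 CPM in the BSA fibrosis group alone.

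In the MO and CCl4 set, 4 weeks of CCl4 went with higher replication genes in all 3 mouse types. In wild-type livers 28 of 38 genes rose and 3 fell, against 22.8% and 23.5% of all genes. In knockout livers with WT HMGB1 36 rose and 0 fell (23.3% and 24.0% of all genes), and in knockout livers with Δ[O] HMGB1 35 rose and 0 fell (12.9% and 11.4%). The median log2 fold changes of the 38 genes were 1.88, 2.21 and 1.88, against -0.004, -0.03 and -0.04 over all genes. Scaled by total counts the medians over all genes were 0.45, 0.27 and 0.14, and those of the 38 genes 2.34, 2.51 and 2.10; 34 rose and 1 fell in wild-type livers, 37 and 0 with WT HMGB1 and 37 and 0 with Δ[O] HMGB1. In CPM, 28, 37 and 20 genes lay wholly above MO and 2, 0 and 0 wholly below, against 23.4%, 24.8% and 14.6% of all genes above and 24.8%, 23.9% and 17.1% below.

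Marker sums of several cell types also differed between CCl4 and MO livers. Stellate cell markers summed to 212 to 471 CPM with CCl4 and 33.7 to 69.7 CPM with MO in wild-type livers, to 827 to 1240 CPM and 48.5 to 71.04 CPM with WT HMGB1, and to 264 to 741 CPM and 40.1 to 77.7 CPM with Δ[O] HMGB1. Hepatocyte markers were lower with CCl4, without overlap, in each mouse type. They summed to 79400 to 115600 CPM with CCl4 and 139800 to 163300 CPM with MO in wild-type livers. They were 75520 to 87210 and 97010 to 143500 CPM with WT HMGB1. With Δ[O] HMGB1 they were 86660 to 106300 and 115500 to 119200 CPM. In wild-type livers the markers of erythroid precursors (53.1 to 74.6 CPM with CCl4 and 30.9 to 38.4 CPM with MO), cholangiocytes (23.3 to 41.8 and 10.9 to 19.6 CPM) and neutrophils (16.1 to 29.7 and 9.84 to 13.4 CPM) were higher without overlap, and those of macrophages (172 to 253 and 339 to 376 CPM) and of T and NK cells (2.23 to 3.07 and 4.32 to 7.02 CPM) were lower. With WT HMGB1 macrophage markers were higher (433 to 504 and 233 to 373 CPM), and neutrophil, B cell and T and NK cell markers lower. With Δ[O] HMGB1 cholangiocyte markers were higher (12.5 to 21.6 and 7.51 to 9.57 CPM). The libraries lowest in the 38 genes, the fourth of wild type and number 5 of Δ[O] HMGB1, were also the lowest in stellate cell markers of their groups. The part of cell makeup in the result was not tested. Hmgb1 itself averaged 58.7 to 172.8 CPM in the knockout groups and 74.8 to 74.9 CPM in wild-type livers, and since reads of a construct can be counted there too, it is no check of the deletion.

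**Figure D4:**
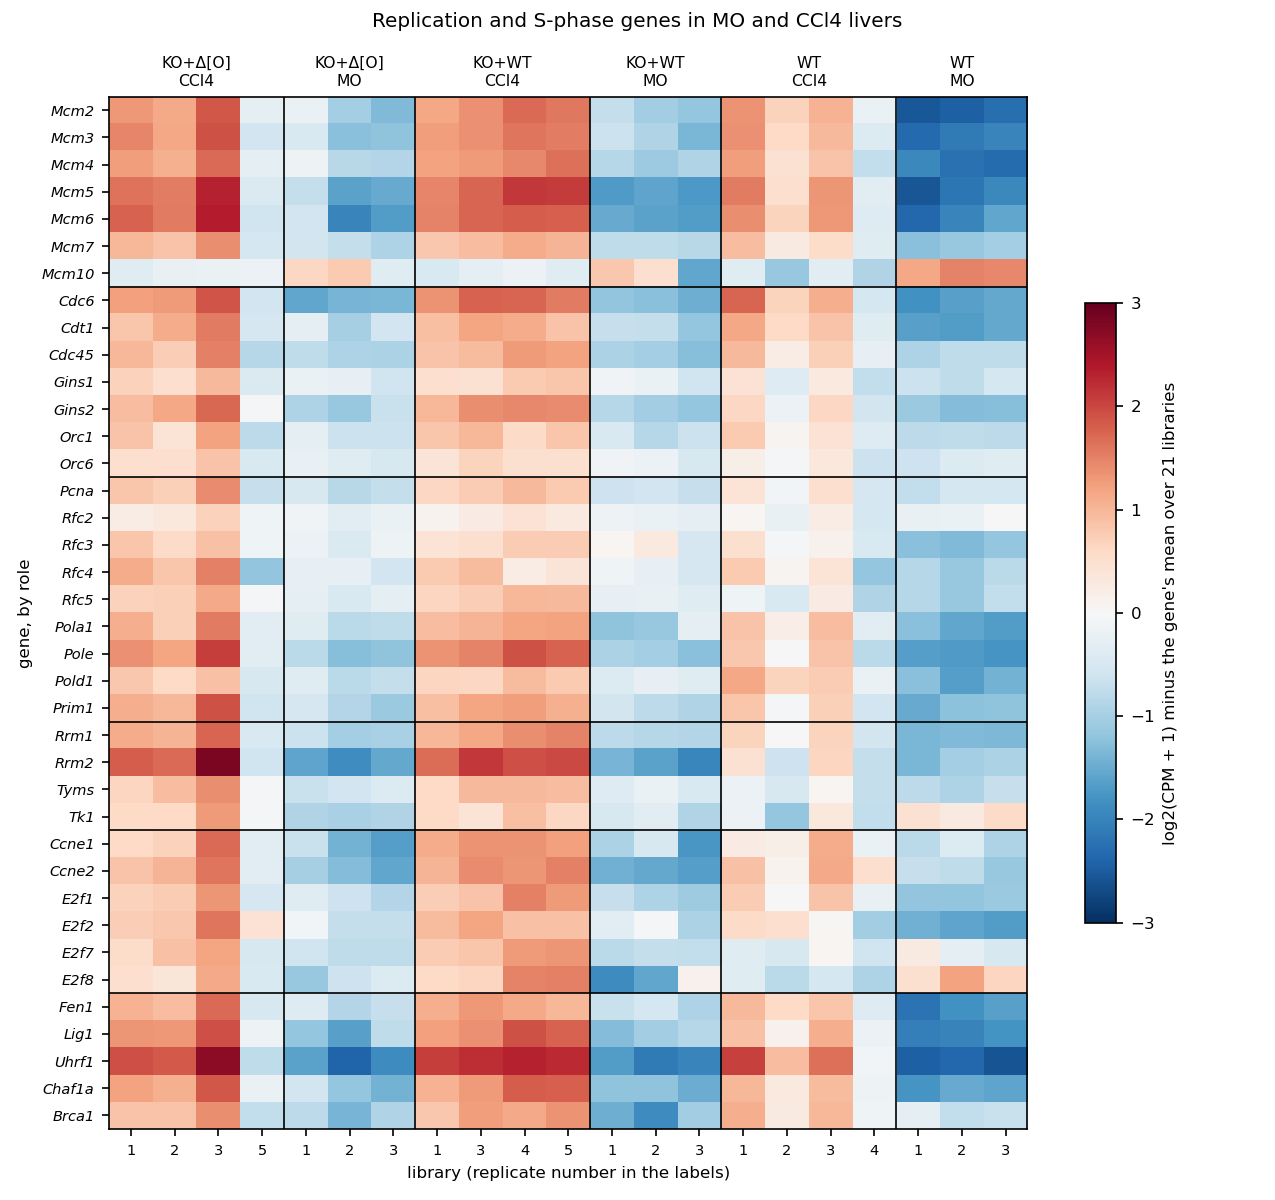
Level of each of the 38 genes (rows, by role) in the 21 livers of the MO and CCl4 set (columns), as log2(CPM + 1) minus the gene's mean over the 21 libraries. CCl4 columns are red for most genes, except library 5 of knockout livers with Δ[O] HMGB1 and library 4 of wild type; Mcm10 is red in wild-type MO livers, as are E2f8 and, more faintly, Tk1.

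Mcm2 to Mcm7, the 6 genes of the MCM ring, rose in all 3 mouse types. In wild-type livers Mcm2 had 43.8, 27.2, 35.5 and 14.3 CPM with CCl4, against 2.02, 2.24 and 2.68 CPM with MO. Even the lowest CCl4 liver was far above all MO livers (log2 3.71, SE 0.49, adjusted p = 1.02e-05 by edgeR). With WT HMGB1 in knockout livers Mcm2 had 38.02, 44.1, 56.05 and 51.6 CPM with CCl4, against 9.64, 7.53 and 6.84 CPM with MO (log2 2.57, SE 0.44). With Δ[O] HMGB1 it had 42.4, 37.4, 63.01 and 13.5 CPM with CCl4, against 14.4, 7.63 and 6.06 CPM with MO (log2 2.06, SE 0.43); here library 5 lay within the MO range. Mcm5 rose in each mouse type, by 3.53 in wild type, 3.81 with WT HMGB1 and 2.94 with Δ[O] HMGB1 on the log2 scale. Mcm6 rose by 2.98, 3.44 and 2.98. Mcm3 (log2 3.27, 2.52 and 2.29), Mcm4 (log2 3.10, 2.48 and 1.76) and Mcm7 (log2 1.62, 1.81 and 1.61) followed in the same order.

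Mcm10 ran the other way. It had 28.1, 16.1, 29.4 and 19.2 CPM with CCl4 in wild-type livers, against 83.1, 105 and 101 CPM with MO. The groups did not overlap (log2 -2.05, SE 0.37, adjusted p = 0.000249 by edgeR). In knockout livers with WT HMGB1 it had 26.4, 30.1, 32.1 and 28.4 CPM with CCl4, against 65.3, 52.3 and 11.9 CPM with MO, and with Δ[O] HMGB1 28.1, 31.4, 31.8 and 32.5 CPM with CCl4, against 57.3, 63.9 and 28.3 CPM with MO. The third MO library was the low one in both knockout groups, and Mcm10 was not called in either; without that library of the WT HMGB1 group it was called lower. No exon of Mcm10 overlaps another gene in the GENCODE M21 annotation.

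Of the licensing and firing genes, Cdc6 had 12.9, 5.57, 7.71 and 1.87 CPM with CCl4 in wild-type livers, against 0.165, 0.328 and 0.416 CPM with MO (log2 4.54, SE 0.73). It had 9.42 to 13.0 CPM with CCl4 and 0.487 to 0.81 CPM with MO in knockout livers with WT HMGB1 (log2 4.13, SE 0.64), and 1.77 to 14.2 CPM and 0.39 to 0.587 CPM with Δ[O] HMGB1 (log2 4.03, SE 0.65). No CCl4 liver overlapped an MO liver of its mouse type for Cdc6. Cdt1 rose by 2.72, 2.09 and 1.69 in wild type, WT HMGB1 and Δ[O] HMGB1, Gins2 by 2.37, 3.22 and 2.68, and Cdc45 by 1.67, 2.74 and 2.15. Gins2 shares 67.3% of its exon bases with Gse1 on the opposite strand, and the strand setting of the counts is not given in the sources used here, so reads of the pair could be mixed. Orc1 was called in all 3 mouse types. The wild-type MO livers held 1 read each, against 78, 33, 49 and 10 reads with CCl4, so no fold is given there. Orc1 rose by 3.76 with WT HMGB1 and 2.67 with Δ[O] HMGB1. The Δ[O] HMGB1 call was lost in a fit of its groups alone and without MO library 2 or 3 or CCl4 library 3.

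Pcna had 49.3, 35.2, 53.03 and 25.9 CPM with CCl4 in wild-type livers, against 21.7, 25.4 and 25.2 CPM with MO, and was not called, though no CCl4 liver was as low as an MO liver. It was called higher there under either DESeq2 choice, total counts, the replicate block, a fit of these groups alone or without CCl4 library 4. In knockout livers with WT HMGB1 it had 57.8, 63.2, 73.2 and 64.9 CPM with CCl4, against 23.6, 24.6 and 22.4 CPM with MO (log2 1.46, SE 0.32, adjusted p = 0.00126 by edgeR), and with Δ[O] HMGB1 66.5, 61.6, 101 and 22.7 CPM, against 26.1, 20.5 and 22.1 CPM (log2 1.46, SE 0.32). Library 5 of Δ[O] HMGB1 again lay at the MO level. The polymerase genes Pole (log2 2.50, 3.00 and 2.65 in wild type, WT HMGB1 and Δ[O] HMGB1), Pola1 (log2 2.30, 2.06 and 1.68), Prim1, the primase gene (log2 2.01, 2.08 and 2.16), and Pold1 (log2 2.51, 1.21 and 1.32) rose in all 3.

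The nucleotide supply genes had unlike values in the mouse types. Rrm2 had 30.4, 13.8, 34.8 and 13.0 CPM with CCl4 in wild-type livers, against 7.82, 10.3 and 10.9 CPM with MO, and was not called there, but it was called higher by DESeq2's test, under total counts, with the replicate block, in a fit of these groups alone and without CCl4 library 2 or 4. In knockout livers with WT HMGB1 it had 71.5, 98.0, 86.5 and 88.6 CPM with CCl4, against 7.63, 6.52 and 4.84 CPM with MO (log2 3.77, SE 0.58, adjusted p = 6.95e-05 by edgeR). With Δ[O] HMGB1 it had 79.6, 73.4, 160.5 and 14.1 CPM with CCl4, against 6.62, 5.30 and 6.92 CPM with MO (log2 3.70, SE 0.58). Every CCl4 liver was above every MO liver in each mouse type, narrowly so in wild type. Tk1 had 21.9, 10.6, 31.7 and 14.6 CPM with CCl4 in wild-type livers, against 34.9, 30.3 and 37.6 CPM with MO, and was called lower (log2 -0.80, SE 0.30, adjusted p = 0.0335 by edgeR). That call was lost under total counts, with no filter, in a fit of these groups alone and without wild-type MO library 1 or 3 or CCl4 library 2 or 4. Tk1 rose in knockout livers with WT HMGB1, with 38.6, 33.6, 47.2 and 39.0 CPM with CCl4, against 17.8, 19.9 and 12.8 CPM with MO (log2 1.24, SE 0.31), and with Δ[O] HMGB1 it had 38.1, 38.6, 62.1 and 23.8 CPM, against 13.0, 12.2 and 12.9 CPM (log2 1.68, SE 0.31). Tk1 shares 1.6% of its exon bases with Afmid on the opposite strand, a gene at 70.4 ± 35.55 CPM with CCl4 (SD, n = 4) and 199.6 ± 12.5 CPM with MO (SD, n = 3) in wild-type livers, and a part of that gene's reads in the Tk1 count was not tested. Rrm1 rose in each mouse type (log2 1.71, 2.18 and 1.99), and Tyms rose with WT HMGB1 (log2 1.31) and Δ[O] HMGB1 (log2 1.48).

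Of the cyclins, Ccne2 had 9.38, 5.07, 11.3 and 6.95 CPM with CCl4 in wild-type livers, against 2.47, 2.29 and 1.57 CPM with MO (log2 1.95, SE 0.39). It rose by 3.82 with WT HMGB1, where it had 10.4 to 15.1 CPM with CCl4 and 0.794 to 1.08 CPM with MO, and by 2.89 with Δ[O] HMGB1. CCl4 and MO livers did not overlap in any mouse type for Ccne2. Ccne1 rose by 1.39, 2.75 and 2.59 and E2f1 by 1.82, 2.25 and 1.46 in wild type, WT HMGB1 and Δ[O] HMGB1; the Ccne1 call in wild type was lost with no filter and without MO library 1 or 3 or CCl4 library 3. The atypical repressors E2f7 and E2f8 behaved otherwise in wild-type livers: E2f8 had 7.81, 5.49, 6.84 and 4.93 CPM with CCl4, against 14.8, 24.97 and 16.8 CPM with MO (log2 -1.58, SE 0.46, adjusted p = 0.00969 by edgeR), and E2f7 was low in both groups (0.448 to 1.28 CPM with CCl4 and 0.554 to 1.60 CPM with MO). The wild-type groups did not overlap for E2f8, whose call was lost under total counts. E2f8 in knockout livers with WT HMGB1 had 16.0, 16.8, 30.6 and 31.1 CPM with CCl4, against 2.08, 2.84 and 11.4 CPM with MO (log2 2.08, SE 0.49), and E2f7 rose by 3.59 (2.67 to 4.44 CPM with CCl4 and 0.231 to 0.335 CPM with MO). With Δ[O] HMGB1 E2f7 rose by 2.88, and E2f8, at 7.29 to 23.8 CPM with CCl4 and 4.18 to 7.57 CPM with MO, was not called.

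Uhrf1 had 38.5, 17.1, 28.9 and 8.06 CPM with CCl4 in wild-type livers, against 0.741, 0.874 and 0.601 CPM with MO. With all CCl4 livers far above all MO livers it showed the largest fitted rise of the 38 genes (log2 4.97, SE 0.77, adjusted p = 6.44e-05 by edgeR), and it rose by 4.81 with WT HMGB1 and 4.45 with Δ[O] HMGB1. Fen1 (log2 2.94, 1.99 and 1.77), Lig1 (log2 2.91, 2.86 and 2.61), Chaf1a (log2 2.74, 3.25 and 2.48) and Brca1 (log2 1.34, 3.04 and 2.09) rose in wild type, WT HMGB1 and Δ[O] HMGB1; the Brca1 call in wild type was lost without MO library 2. Chaf1a shares 52.5% of its exon bases with Ubxn6 on the opposite strand. Of 40 other replication genes 22 rose and 2 fell in wild-type livers, 27 rose and 2 fell with WT HMGB1 and 23 rose and 0 fell with Δ[O] HMGB1. The checkpoint gene Clspn (log2 3.69, 5.06 and 4.93), the origin firing gene Ticrr (log2 2.85, 4.35 and 4.29) and the histone chaperone gene Asf1b (log2 2.46, 2.76 and 3.31) led in each. Of 25 G1/S regulators 11 rose and 3 fell in wild type, 13 and 1 with WT HMGB1 and 7 and 0 with Δ[O] HMGB1. Ccnd1, the cyclin D1 gene, led in wild type (log2 3.68), and Ccna2 led with WT HMGB1 (log2 4.16) and Δ[O] HMGB1 (log2 3.94).

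**Figure D5:**
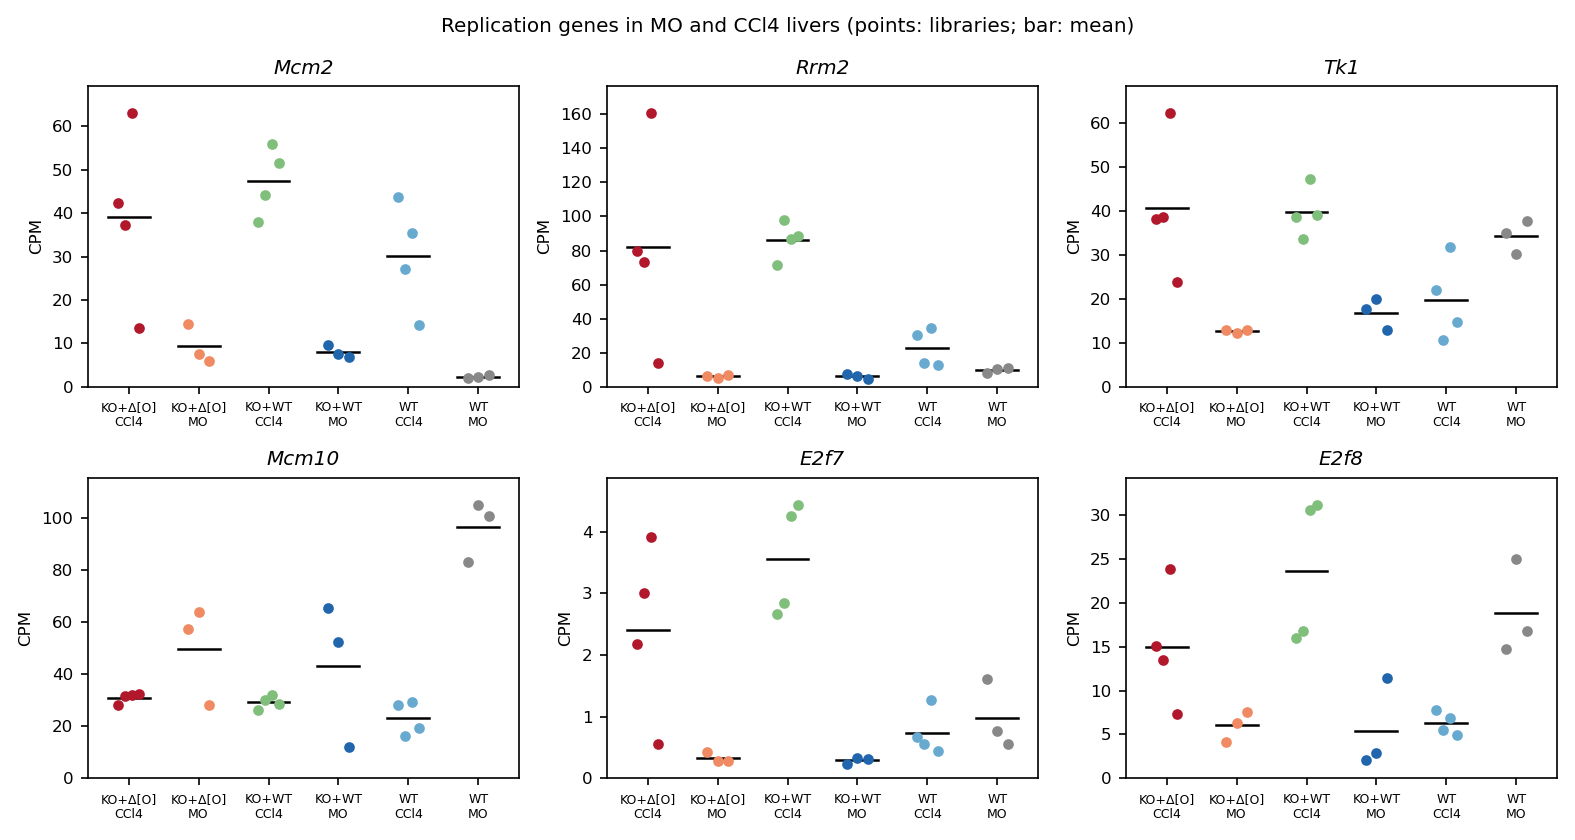
CPM of 6 genes in the MO and CCl4 set. Points are the libraries (4 with CCl4 and 3 with MO per mouse type) and bars the means, with each axis starting at 0. Mcm2 is above MO in nearly all CCl4 livers, Rrm2, E2f7 and E2f8 reach their highest levels in knockout CCl4 livers, and Mcm10 is highest in wild-type MO livers.

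No difference in these genes passed the test between the Δ[O] and WT forms of HMGB1 under CCl4. Between the knockout groups with CCl4, edgeR called 0 of 38 genes, where 0.113% of all genes were called higher and 2.19% lower with Δ[O] HMGB1, and 0 of 38 had an unadjusted p under 0.05; DESeq2 also called 0. The log2 fold changes ran from -0.66 to 0.26 with a median of -0.22, and the median was 0.06 without library 5 of the Δ[O] group, -0.53 without its library 3 and -0.54 with the replicate block. Mcm2 differed by -0.28 (SE 0.36), Rrm2 by -0.07 (SE 0.45), Tk1 by 0.04 (SE 0.27) and E2f1 by -0.44 (SE 0.31). Differences well above the size of these SEs could also be missed, and log2 fold changes down to -0.66 were not called. In CPM 0 of 38 genes lay wholly above and 0 wholly below, against 3.87% and 7.07% of all genes. The CCl4 response itself, tested as an interaction, differed for 0 of 38 genes and 0.0% of all genes, with 0 of 38 and 2098 of 14129 genes at an unadjusted p under 0.05 and 0 of 38 by DESeq2. Without MO library 3 of the WT HMGB1 group, E2f8 alone was called, lower with Δ[O] HMGB1.

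Knockout livers with WT HMGB1 stood above wild-type livers under CCl4 in 11 of 38 genes and below in 0, where 15.8% of all genes were called higher and 13.0% lower. Counting both directions, the share called was near the background. The median log2 difference was 0.79, against 0.02 over all genes. Under total counts, where 69.9% of all calls were higher in place of 54.8%, 13 were higher and 0 lower. All 4 nucleotide supply genes were among the 11: Rrm2 had 71.5, 98.0, 86.5 and 88.6 CPM, against 30.4, 13.8, 34.8 and 13.0 CPM in wild-type livers, with a wide gap between the groups (log2 1.90, SE 0.47, adjusted p = 0.00592 by edgeR), followed by Tyms (log2 1.26), Rrm1 (log2 1.01) and Tk1 (log2 1.01). E2f7 (log2 2.25, SE 0.43) and E2f8 (log2 1.91, SE 0.44) were the cyclin and E2F genes called. Pole (log2 1.36), Gins2 (log2 1.30), Rfc5 (log2 1.17), Lig1 (log2 1.07) and Chaf1a (log2 0.98) made up the rest, and of 7 MCM genes 0 were called by edgeR, with 2 at an unadjusted p under 0.05 and 0 called by DESeq2. In CPM 20 of 38 genes lay wholly above wild type and 0 below, against 17.7% and 13.8% of all genes. With the replicate block 22 of 38 were called, and without single libraries 8 to 16: 8 without wild-type CCl4 library 4 or WT HMGB1 library 4 or 5, and 16 without wild-type CCl4 library 3. Lig1 and Rrm1 were called in 10 of 14 alternatives and Chaf1a in 8 of 14. Markers of 4 cell types were also higher, without overlap. Stellate cell markers summed to 827 to 1240 CPM, against 212 to 471 CPM in wild-type livers, macrophage markers to 433 to 504 CPM, against 172 to 253 CPM, endothelial markers to 114 to 147 CPM, against 68.4 to 87.9 CPM, and T and NK cell markers to 4.77 to 5.76 CPM, against 2.23 to 3.07 CPM. Cholangiocyte markers were lower (13.0 to 19.8 CPM, against 23.3 to 41.8 CPM), and the part of these markers in the result was not tested. Of the other replication genes 16 of 40 were higher and 1 lower, led by Clspn (log2 2.33), Ticrr (log2 1.91), Cdc7 (log2 1.34) and Pole4 (log2 -0.76). Of the G1/S regulators 4 of 25 were higher and 3 lower, led by Ccna2 (log2 3.21) and Cdkn1a (log2 -1.55).

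These groups differ before CCl4 as well: Mcm2, for example, averaged 8.002 ± 1.46 CPM with MO in knockout livers with WT HMGB1 and 2.31 ± 0.338 CPM in wild-type MO livers (SD, n = 3 each). An interaction test added after the data were seen therefore compared the CCl4 responses. The response of knockout livers with WT HMGB1 exceeded that of wild type for 5 of 38 genes and was smaller for 0, where 6.85% of all genes were called higher and 6.64% lower. Counting both directions, the share called was near the background. The 5 were Rrm2 (log2 2.52, SE 0.73), Tk1 (log2 2.04, SE 0.42), Ccne2 (log2 1.87, SE 0.56), E2f7 (log2 3.99, SE 0.74) and E2f8 (log2 3.67, SE 0.68). For Tk1 and E2f8 the responses had opposite signs, since both were called lower with CCl4 in wild-type livers and higher in these knockout livers. Under total counts, where 28.0% of all calls were higher in place of 50.8%, 4 were higher and Pold1 lower. Leaving out single libraries gave 3 to 6 calls; it was 3 without wild-type MO library 2, wild-type CCl4 library 2, WT HMGB1 MO library 2 or WT HMGB1 CCl4 library 5, and in these 4 fits Rrm2 and Ccne2 lost their calls. Rrm2 was called in only 10 of 20 alternatives and Ccne2 in 11 of 20, while Tk1, E2f7 and E2f8 kept their calls in all 20.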

How the data were processed

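Messenger RNA was sequenced from 51 libraries in 16 groups. The deposited tables hold whole-number counts per gene, not normalised; the submitters' processing notes name the build mm10, also for the rat cells, while aligner, counter, annotation and strandedness are not given in the sources used. Lines that name no gene were left out of library sizes; in the cell and MO and CCl4 tables, reads assigned to no feature came to 5.5% to 35.2% and ambiguous ones to 0.282% to 1.66% of the gene counts. Genes with too few counts were dropped by filterByExpr (minimum count 10, minimum total 15). One robust quasi-likelihood model per table (edgeR 4.0.16, R 4.3.3), with all its groups and TMM factors, gave log2 fold changes and p-values, adjusted by Benjamini-Hochberg over all genes of the table at 0.05. SE is the log2 fold change over the square root of its F. CPM used the same factors, without a pseudocount. Samples were grouped by the labels. In no table did most same-numbered pairs of samples share their deviations, though some liver pairs did (see the closing section), so the model has no block. There were 16 planned comparisons and 1 added after the data were seen. Alternatives were DESeq2 1.42.0 (its size factors, and its test), total counts, no filter, a replicate block, the compared groups alone and each replicate left out. The fit was tested on simulated data with 50 genes changed at each fold. For [O] HMGB1 against BSA in cells it recovered 82% of 1.5-fold and 94% of 2-fold changes. It recovered 2% and 10% for [O] HMGB1 against BSA in fibrosis livers, and 20% and 68% for CCl4 against MO in wild-type livers. In fibrosis livers 68% of 4-fold changes were recovered. A lack of calls in fibrosis livers therefore says little about changes of 2-fold or less, and some 4-fold changes were missed too. The changed genes were drawn at random from all genes tested. Recovery was not measured for the 38 genes themselves, whose levels varied widely within the fibrosis groups. The 38 genes and the other lists were chosen with earlier results of these data known. Named in each comparison were up to 3 called genes per role with the largest change, 9 anchors (Mcm2, Mcm5, Cdc6, Pcna, Rrm2, Tk1, Ccne1, Ccne2 and E2f1), and up to 3 of the other lists in each direction; further genes were named after their values were seen. A planned ranking of genes by likeness of pattern was not made, since the livers form separate MO and CCl4 clusters. No libraries held identical counts. Within groups, the closest pair of cell libraries ([H] 2 and 3) had a chi-square per degree of freedom of 1.462. Sampling alone gives about 1. The closest liver pairs had 10.24 in the fibrosis and resolution set and 10.97 in the MO and CCl4 set. Promoters are RefSeq windows and exon overlaps are from GENCODE M21, both on GRCm38, and figures were drawn with matplotlib 3.10.9.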

Additional observations from a re-analysis of the deposited data

Results flagged for a closer look

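In groups of 4 livers, the lowest value stood far from the rest for 2 genes of 114 gene and group combinations tested, where chance gives about 1 in 20. Both were in CCl4 library 1 of knockout livers with WT HMGB1: Gins2 had 6.87 CPM there, against 9.40 to 9.75 CPM in the other 3, and Tyms had 18.3 CPM, against 23.2 to 24.0 CPM.

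The CCl4 response differed between knockout livers with WT HMGB1 and wild-type livers, by an interaction test in edgeR that was added after the data were seen, for 5 of the 38 genes: Rrm2 (log2 2.52, adjusted p = 0.0306), Tk1 (log2 2.04, adjusted p = 0.00425), Ccne2 (log2 1.87, adjusted p = 0.0307), E2f7 (log2 3.99, adjusted p = 0.00163) and E2f8 (log2 3.67, adjusted p = 0.00198). Over all genes 6.85% were called higher and 6.64% lower in this test. Counting both directions, the share of the 38 genes called was near that background. Rrm2 kept its call in 10 of 20 alternatives and Ccne2 in 11 of 20, and the other 3 kept theirs in all 20. Every one was a larger rise, or a rise in place of a fall, in the knockout livers, and genotype and construct cannot be told apart in it.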

How the results depend on the processing

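For the named genes that were called, 2948 values under alternatives were compared with 227 reported results. Of these values, 2705 kept direction and call, 241 lost the call with the same direction, and 2 reversed. Both were G1/S regulators slightly lower with CCl4 in wild-type livers, which turned positive under total counts (Ccnd3, log2 0.0319, and Rb1, log2 0.0272). With the replicate block the count of genes called was 0 for [H] HMGB1 in cells and 22 for knockout livers with WT HMGB1 against wild type under CCl4, and in the other comparisons it stayed within 1.5 times the reported count. The replicate numbers share little in cells, where deviations of same-numbered samples had a correlation over 0.1 in 0 of 18 pairs. In fibrosis and resolution livers it was over 0.1 in 14 of 45 pairs, with a range of -0.446 to 0.708. For the MO and CCl4 livers it was over 0.1 in 17 of 42, with a range of -0.252 to 0.454. For resolution against fibrosis with BSA 7 genes were called with no filter, 23 by DESeq2 and 1 with the compared groups alone, and for the added difference in CCl4 response DESeq2 called 8. Leaving out single libraries gave 0 to 1 genes for [H], 25 to 31 for [O] and 27 to 30 for [SO3] HMGB1 against BSA in cells, 14 to 20 for [SO3] against [O], and 0 for each HMGB1 form or antibody in fibrosis and resolution. It gave 0 to 24 for resolution against fibrosis, 27 to 35 for CCl4 in wild type, 34 to 36 with WT HMGB1 and 30 to 37 with Δ[O] HMGB1. Between Δ[O] and WT HMGB1 it gave 0 under CCl4 and 0 to 1 for the response, and between knockout with WT HMGB1 and wild type 8 to 16 under CCl4 and 3 to 6 for the response. The cause of these shifts was not tested. SEs were larger in livers than in cells. That of the Mcm2 log2 fold change was 0.84 for resolution against fibrosis and 0.49 for CCl4 in wild-type livers. It was 0.05 for [O] HMGB1 in cells. The cell samples could be repeats of the same culture, so their SEs may not hold the spread between cultures.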
